A study of Mus musculus with 4 samples.

Results

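CD8+ T cells with transcripts of *Klrg1*, *Cx3cr1* or *Zeb2* were examined in the blood of mice that carried MC-38 tumors and were left untreated or received immune checkpoint therapy. The cells were chosen on measured counts of unique molecular identifiers (UMIs, 1 per captured transcript molecule). A cell had to hold at least 1 UMI of *Cd8a* or *Cd8b1*, at least 1 of *Cd3d*, *Cd3e* or *Cd3g* and 0 of *Cd4*. It also had to hold UMIs of at least 3 of the 6 effector/memory genes *Lgals1*, *S100a4*, *S100a6*, *Ccl5*, *Cd44* and *Cxcr3*, here called the gate, and at least 1 UMI of the 3 marker genes. Of 5276 cells kept from 4 libraries, 2106 were CD8+ T cells, 500 passed the gate and 193 carried a marker. These 193 cells are called terminal effectors below, and the 307 gated cells with none of the 3 markers serve as their comparison.

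Terminal effectors are the short-lived, strongly cytotoxic end of CD8+ T cell differentiation. They carry the inhibitory receptor KLRG1 and the fractalkine receptor CX3CR1, depend on the transcriptional repressor ZEB2 acting with T-bet, and lose the IL-7 receptor, the lymph node homing receptors and TCF-1 that memory cells keep. In blood, CX3CR1 marks effector cells that stay in the vessels rather than enter lymph nodes.

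All mice were female C57BL/6 animals, 6 to 8 weeks old at the start, which carried the syngeneic colorectal tumor line MC-38 under the skin and gave blood on day 18. Anti-PD-L1, which blocks the checkpoint ligand PD-L1, was given at 150 µg on days 10, 13 and 17. Agonistic anti-OX40 was given at 150 µg on day 7 with 25 µg of CpG, a TLR9 ligand, and PDOX combined both regimens. T cells were enriched by magnetic removal of other cells, and droplet-based single-cell RNA sequencing of transcript 3′ ends was run on 1 library per group. The sample labels name OX40 alone, which was taken as the anti-OX40/CpG regimen. The record speaks of 4 blood samples from 4 mice, so that mouse, library and treatment cannot be told apart. Differences between treatments are therefore given without a test. The p-values below rest on how a difference between subsets of the same library varies over the libraries tested, not over mice of the same treatment.

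Below, 4 values of 1 quantity begin with the untreated library, followed by anti-PD-L1, then anti-OX40/CpG, then PDOX, and 3 values from the treated libraries begin with anti-PD-L1 and leave the untreated library out. Total UMIs per library as deposited ranged from 2392650 to 4969885, and kept cells held a median of 1517 to 1714 UMIs of counted genes. The terminal effectors were deeper, with medians of 2197, 3196, 2372 and 2018 UMIs, and the other gated cells likewise, with 2405, 3215, 2068 and 1980. Pairs of libraries shared 16 cell barcodes, none of them of a terminal effector. The 95% intervals given for single libraries are exact and cover counting error only.

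Before any comparison, the labelled cell type was checked against *Gzma*, which encodes granzyme A and was not used by the selection. *Gzma* stood at 10.4, 37.3, 50.3 and 51.5 UMIs per 10000 counted UMIs in the terminal effectors of the 4 libraries. The other gated cells held 0.808, 12.5, 5.57 and 7.22 UMIs per 10000, and naive CD8+ cells (*Ccr7* detected, none of the gate genes) held 0.222 to 0.318. *Gzma* was thus higher in the terminal effectors of every library, by ratios of 12.8 (95% interval 4.41 to 50.9), 2.97 (2.52 to 3.51), 9.03 (7.53 to 10.9) and 7.13 (6.07 to 8.41). These intervals treat each UMI as independent and leave out the spread over cells. The untreated ratio rests on 24 against 4 UMIs, and 23 of the 24 came from 1 cell. That cell held 1 UMI of the 3 *Cd3* genes and 16 of *Tyrobp*, a gene of myeloid and NK cells. The 20 untreated other gated cells held 1 *Tyrobp* UMI together. Whether that cell was a T cell was not tested. Without the cells rich in *Lyz2* described next, the first 2 ratios were 21.3 and 3.99. With at least 4 gate genes required, the untreated ratio turned to 0.497 on 1 against 4 UMIs and the anti-PD-L1 ratio was 1.61, and with cells thinned to 1000 UMIs and gated again the anti-OX40/CpG ratio was 1.93.

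Some of the cells went against the label. In the untreated library 3 of 9 terminal effectors held 52 to 252 UMIs of *Lyz2*, the lysozyme gene of monocytes and macrophages, and in the anti-PD-L1 library 6 of 35 held 101 to 431. All remaining terminal effectors held at most 5. These 9 cells carried only 1 or 2 UMIs of the 3 *Cd3* genes, against medians of 3.5 and 14 in the rest of those libraries, and had 0 UMIs of *Gzma* and *Klrg1*. They had entered through *Zeb2* or *Cx3cr1*, which blood monocytes also express. None of the 307 other gated cells, and no anti-OX40/CpG or PDOX terminal effector, held 10 or more *Lyz2* UMIs. They gave much of the RNA of these subsets, since without them 13961 of 23127 UMIs remained in the untreated and 89157 of 119715 in the anti-PD-L1 terminal effectors. Levels below include them, and the main values without them follow, with a limit set after their counts were seen.

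**Figure D1:**
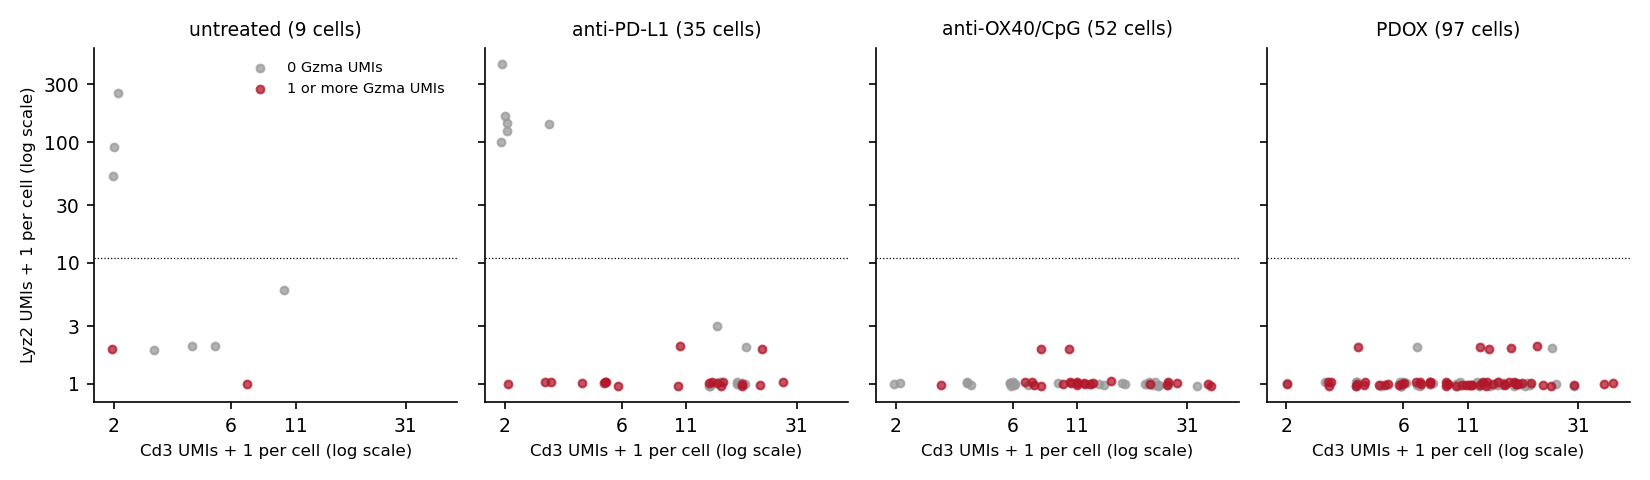
*Lyz2* UMIs + 1 against UMIs + 1 of *Cd3d*, *Cd3e* and *Cd3g* summed, for each terminal effector cell of each library, on log scales with slight jitter. Red points hold at least 1 *Gzma* UMI, grey points hold 0, and the dotted line marks 10 *Lyz2* UMIs: 3 untreated and 6 anti-PD-L1 cells lie above it, all grey and all at the low end of *Cd3*.

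The 12 monocyte markers summed to 336, 160, 8.43 and 7.76 UMIs per 10000 in the terminal effectors, with 11, 11, 8 and 9 of the 12 found and *Cd14* at 0 in every library. The other gated cells held between 6.39 and 10.1. Leaving the cells rich in *Lyz2* out, 89.5 remained in the 6 untreated and 10.5 in the 29 anti-PD-L1 terminal effectors. *Csf1r* or *Spi1*, which define monocytes and macrophages, were found in 4 of 9, 7 of 35, 0 of 52 and 1 of 97 terminal effectors. With *Ms4a6c* counted as well, the numbers were 5, 11, 9 and 14, and 1 of 20, 4 of 54, 8 of 113 and 12 of 120 in other gated cells. Of the 9 NK cell markers, the summed level was 92.5, 37.3, 9.93 and 5.75 UMIs per 10000 in terminal effectors, beside 5.05 to 9.88 in the other gated cells, and the first 2 sums were 66.6 and 9.31 without the cells rich in *Lyz2*. *Tyrobp* and *Fcer1g*, which are also on the monocyte list, gave 99 and 86 of the 214 untreated UMIs. They gave 216 and 179 of the 446 anti-PD-L1 UMIs. *Ncr1* or *Klrb1c*, counted here as markers of NK cells, were found in 2, 2, 7 and 3 terminal effectors. These subsets held 6, 7, 3 and 0 UMIs of *Ncr1* and 3, 7, 12 and 5 of *Klrb1c*. B cell markers summed to 9.08, 14.8, 0.617 and 0.639 UMIs per 10000 in the terminal effectors and to 1.32 to 7.71 in the other gated cells. Without the cells rich in *Lyz2*, the first 2 B cell sums were 2.15 and 1.46. *Cd74*, the MHC class II invariant chain, gave 169 of the 177 B cell marker UMIs in the anti-PD-L1 terminal effectors. Platelet genes were found in 0 of 9, 1 of 35, 0 of 52 and 12 of 97 terminal effectors. In the other gated cells they were found in 0 of 20, 1 of 54, 2 of 113 and 4 of 120. Some defining marker of another cell type, *Ms4a6c* included, was found in 6 of 9, 18 of 35, 18 of 52 and 34 of 97 terminal effectors. Among the other gated cells, the numbers were 5 of 20, 16 of 54, 16 of 113 and 20 of 120. *Ms4a6c* was also found in naive CD8+ cells, at 0.53 to 0.635 UMIs per 10000, beside 0.822 and 0.682 in the anti-OX40/CpG and PDOX terminal effectors. A cell counted through *Ms4a6c* alone thus need not be of another type. Neutrophil genes summed to at most 0.865 and the 3 gamma-delta and NKT genes in the files to at most 0.0835 UMIs per 10000 in terminal effectors, and *Foxp3* of regulatory T cells was at 0. Where these levels move with a result below, their part in it was not tested unless values without the cells are given.

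Terminal effectors made up the largest share of CD8+ T cells after PDOX treatment. They numbered 9 of 324 CD8+ T cells without treatment (2.78%, 95% interval 1.28 to 5.21). After anti-PD-L1 they were 35 of 653 (5.36%, 3.76 to 7.38), with anti-OX40/CpG 52 of 673 (7.73%, 5.82 to 10) and with PDOX 97 of 456 (21.3%, 17.6 to 25.3). The PDOX interval did not overlap those of the other libraries, but these intervals cover counting error only, with 1 library per group. Without the cells rich in *Lyz2*, the first 2 shares were 1.87% and 4.48%. With every cell thinned to 1000 UMIs and gated again, the shares were 1.55%, 3.59%, 4.77% and 14.2%.

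The gated population as a whole was also larger, at 8.95%, 13.6%, 24.5% and 47.6% of CD8+ T cells. Among gated cells the libraries lay closer together, with terminal effectors at 31% (15.3 to 50.8), 39.3% (29.1 to 50.3), 31.5% (24.5 to 39.2) and 44.7% (38 to 51.6). After thinning and gating again they were 40%, 31.1%, 22.4% and 30.1%, with overlapping intervals.

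**Figure D2:**
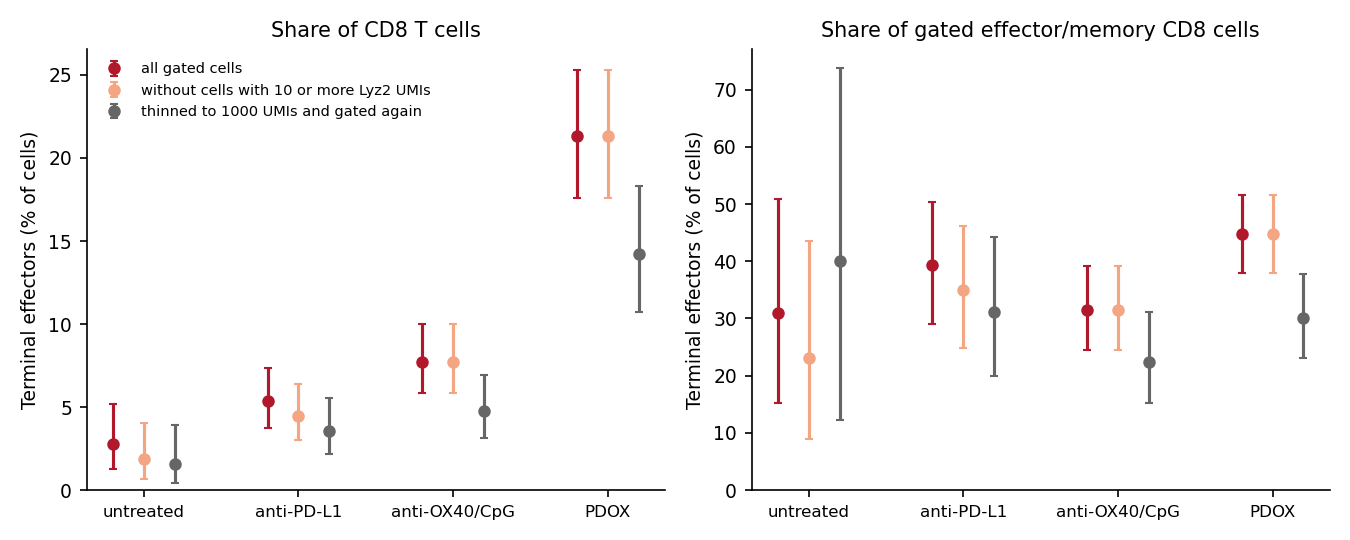
Terminal effectors as a percentage of CD8+ T cells (left) and of gated effector/memory CD8+ cells (right) in each library, with exact 95% binomial intervals, for all gated cells, without cells of 10 or more *Lyz2* UMIs, and after thinning to 1000 UMIs per cell. On the left, PDOX stands highest in all 3 settings. On the right, the intervals of the thinned cells overlap in all 4 libraries.

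The 3 marker genes themselves, which selected the cells and are given as a description, were not carried equally. *Zeb2* was detected in 100%, 82.9%, 46.2% and 56.7% of the terminal effectors, *Klrg1* in 11.1%, 28.6%, 46.2% and 52.6%, and *Cx3cr1* in 11.1%, 60%, 55.8% and 50.5%. The untreated cells were thus mainly *Zeb2* cells, 7 of 9 with *Zeb2* alone. With the cells rich in *Lyz2* left out, *Klrg1* was detected in 16.7% and 34.5% and *Cx3cr1* in 0% and 55.2% of the untreated and anti-PD-L1 cells. Across libraries, 73 terminal effectors held 1 marker UMI, 42 held 2 and 78 held 3 or more, up to 13. Of the gate genes, 47 cells held exactly 3, just inside the gate, and 32 CD8+ cells with a marker held 2 and stayed outside.

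Detection outside effector cells set the background for these markers. *Klrg1* and *Cx3cr1* were found in 0 of 92 B cells (at least 1 UMI each of *Cd79a*, *Cd79b* and *Ms4a1* and none of *Cd3*, with a median of 1308 UMIs). The upper limit of such a share was approximated as 3 of 92 cells, or 3.26%, and is not an exact interval. *Zeb2* was found in 15 of the 92 (16.3%). Of 401 naive CD8+ cells (median 1667 UMIs) 2, 1 and 6 held *Klrg1*, *Cx3cr1* and *Zeb2*. NK cells (*Ncr1* without *Cd3*) held *Klrg1* in 58.9% and *Zeb2* in 62.5% of 56 cells, and monocytes (*Csf1r* and *Lyz2* without *Cd3*) held *Cx3cr1* in 59.4% and *Zeb2* in 79.7% of 69 cells. *Klrg1* was found in none of the monocytes.

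The gate genes differed in level between the subsets, again as a description. *Ccl5*, a chemokine of cytotoxic cells, stood at 183, 310, 699 and 581 UMIs per 10000 in the terminal effectors and at 95.9, 159, 477 and 425 in the other gated cells. *Lgals1*, encoding galectin-1, stood at 52.3 to 60.8 against 20 to 49.2. *Cxcr3*, an inflammatory homing receptor, went the other way in every library, at 0.432, 1.25, 1.23 and 2.73 in terminal effectors and 3.84, 2.59, 2.03 and 4.59 in the other gated cells. Without the cells rich in *Lyz2*, the untreated and anti-PD-L1 terminal effectors held 303 and 416 UMIs per 10000 of *Ccl5* and 0.716 and 1.68 of *Cxcr3*.

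The markers went together within cells. In the gated cells of the 3 treated libraries, *Klrg1* was detected in 39.4% of cells with *Cx3cr1* and 12.4% of cells without it, and in 38.9% of cells with *Zeb2* and 11.8% of cells without it. *Cx3cr1* was detected in 50% of cells with *Zeb2* and 12.4% of those without. Each of these differences had the same direction in each treated library. The 3 pairs were 41.5% and 12.4%, 40.8% and 11.9%, and 48.5% and 12.2% without the cells rich in *Lyz2*. Over the 3 libraries together, median UMIs were 2213 in cells with 2 or more markers, 2198 in cells with 1 and 2200 in gated cells with none. Within libraries they were 3168, 3440 and 3215 with anti-PD-L1, 2535, 2219 and 2068 with anti-OX40/CpG and 2004, 2018 and 1980 with PDOX. The part of depth in the joint detection was not tested.

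*Gzma* varied strongly with the markers a cell carried. Of the 184 terminal effectors of the treated libraries, 103 held exactly 1 marker and 81 held 2 or more. *Gzma* stood at 6.36 UMIs per 10000 in the 33 cells with *Cx3cr1* alone, 19.9 in the 31 with *Klrg1* alone and 32.1 in the 39 with *Zeb2* alone, beside 7.98 in gated cells with none. It stood at 34.2 in the 27 cells with *Cx3cr1* and *Zeb2*, 60.4 in the 12 with *Klrg1* and *Cx3cr1*, 103 in the 15 with *Klrg1* and *Zeb2* and 117 in the 27 with all 3. Cells with *Cx3cr1* alone thus lay near the gated cells without markers, with a *Gzma* UMI in 21.2% of cells against 19.5%. Of the cells with *Klrg1* and *Zeb2*, 93.3% held a *Gzma* UMI. The cells with many *Lyz2* UMIs lie in the groups without *Klrg1*, and *Lyz2* reached 118 UMIs per 10000 in those with *Cx3cr1* and *Zeb2*. Without them, *Gzma* stood at 48.7 in the cells with *Cx3cr1* and *Zeb2*, 33.9 with *Zeb2* alone and 6.73 with *Cx3cr1* alone.

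**Figure D3:**
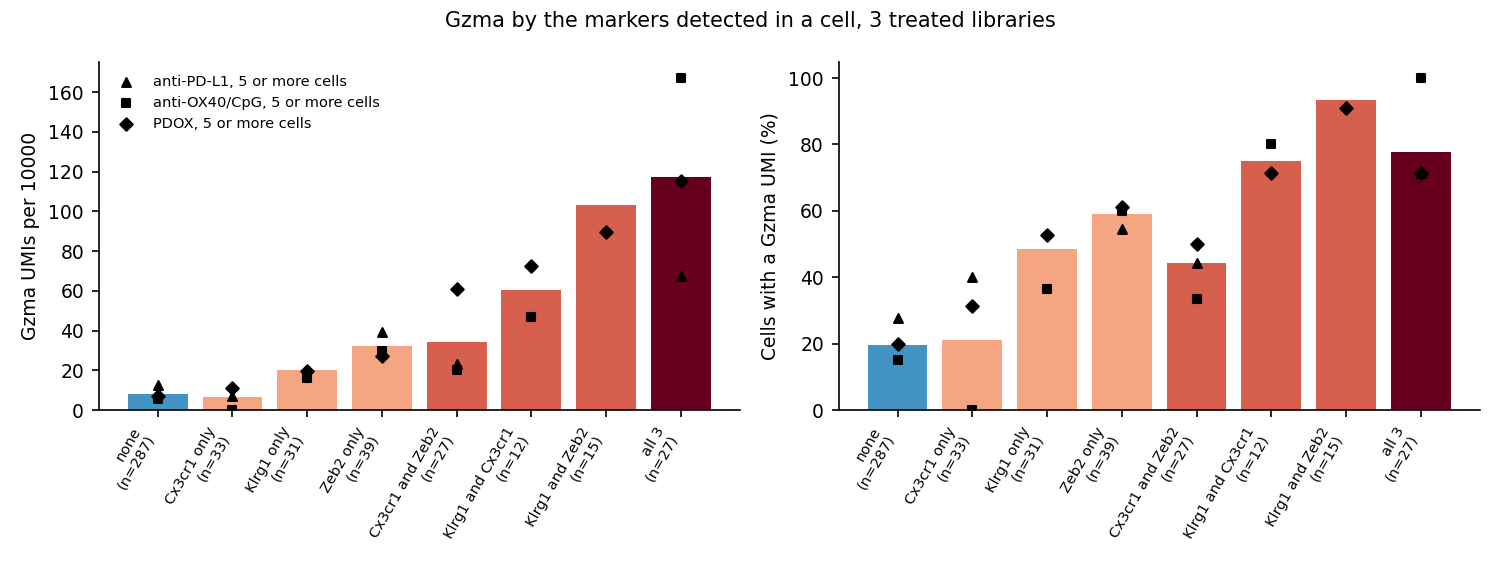
*Gzma* UMIs per 10000 (left) and the percentage of cells with a *Gzma* UMI (right) by the markers detected in a gated cell, over the 3 treated libraries together (bars) and in each library with at least 5 such cells (points). The level runs from 6.36 UMIs per 10000 with *Cx3cr1* alone to 117 with all 3 markers, and the libraries scatter widely within a group.

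A comparison of terminal effectors with 2 or more markers against those with 1 tested 1196 genes over the 3 treated libraries. *Gzma* was 28.4, 15.1 and 19.4 UMIs per 10000 in the cells with 1 marker and 45.5, 101 and 88.7 in those with more, higher in each library. By the quasi-likelihood test of edgeR with p-values adjusted after Benjamini and Hochberg, it was the only gene called higher (log2 fold change 1.91, SE 0.26, adjusted p = 0.014), 0.0836% of genes tested. The only gene called lower, also 0.0836%, was *Ctla2a*, a cathepsin inhibitor of activated T cells (log2 fold change -1.54, adjusted p = 0.014 in the same test). These 2 were among 85 genes with an unadjusted p under 0.05. DESeq2 called 0 genes, with 12 at an unadjusted p under 0.05, and edgeR called 0 without the PDOX library. Without the cells rich in *Lyz2*, *Gzma* was at 1.97 (adjusted p = 7.8e-07).

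*Gzma* was also unevenly spread over single cells. No *Gzma* UMI was found in 7 of 9 untreated, 15 of 35 anti-PD-L1, 28 of 52 anti-OX40/CpG and 40 of 97 PDOX terminal effectors, while single cells reached 98, 119 and 106 UMIs in the treated libraries. The 10% of cells with most *Gzma* UMIs held 58.5%, 56.8% and 50.2% of them there. In the treated other gated cells these shares were 91.3%, 95.7% and 86.1%, and 1 anti-PD-L1 cell held 105 of the 218 UMIs.

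Against the other gated cells, terminal effectors had more transcripts of some cytotoxicity and NK receptor genes and fewer of many genes of naive and memory cells. The test summed UMIs per library and subset in the 3 treated libraries with a term for the library, each of which served as its own control. The untreated library, with 9 terminal effectors, lay under the minimum of 10 cells and did not enter. Of 3253 genes tested, 32 (0.984%) were called higher and 42 (1.29%) lower at an adjusted p under 0.05, and the genes of the selection were left out. Without the cells rich in *Lyz2*, 46 of 3220 genes (1.43%) were higher and 53 (1.65%) lower. Log2 fold changes, standard errors (SE) and adjusted p-values that follow are those of edgeR over all genes tested, adjusted after Benjamini and Hochberg.

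Of 12 terminal effector genes outside the selection, 9 were tested, 4 rose and none fell, with a median log2 fold change of 0.86 beside 0.001 over all genes tested. *Gzma* rose most clearly (2.55, SE 0.20, adjusted p = 2.2e-06) and was called in 17 of 17 alternative analyses, whereas *Gzmb* was not without the PDOX library (adjusted p = 0.25). *Gzmb*, encoding granzyme B, stood at 4.76, 5.68, 8.36 and 11.8 UMIs per 10000 in the terminal effectors and at 1.41, 3.68, 5.01 and 3.72 in the other gated cells. It was higher in every library (1.07, SE 0.18, adjusted p = 0.0034), and at 7.88 and 7.51 in the first 2 without the cells rich in *Lyz2*. All 11 *Gzmb* UMIs of the untreated terminal effectors came from 1 cell, the one with 23 *Gzma* UMIs and 1 *Cd3* UMI, and 8 of the 9 held 0. In the untreated other gated cells, 5 of 20 held a *Gzmb* UMI.

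*S1pr5*, the sphingosine-1-phosphate receptor that T-bet and ZEB2 are known to control and that guides effector and NK cells into blood, stood at 1, 1.23 and 0.895 UMIs per 10000 in the treated terminal effectors and at 0.115, 0.0795 and 0.376 in the other gated cells. The groups did not overlap (2.37, SE 0.47, adjusted p = 0.0099), and the untreated library had 1 UMI against 0. *Tbx21*, encoding T-bet itself, was 0.418, 0.48 and 0.767 against 0.23, 0.278 and 0.501 and did not pass (0.72, SE 0.40, adjusted p = 0.50). *Id2*, a repressor of E proteins in effector cells, had a log2 fold change of 0.40 (adjusted p = 0.15), which passed without the cells rich in *Lyz2* (0.50, adjusted p = 0.0099). *Prf1*, encoding perforin, and *Prdm1*, encoding BLIMP-1, had at most 6 UMIs in any library's terminal effectors and were not tested.

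Of 15 cytotoxic granule genes, 13 were tested, 3 rose and 1 fell, with a median log2 fold change of 0.45. Beside both granzymes, *Nkg7*, a granule membrane protein needed for degranulation, rose from 35.9, 46.2 and 48.7 UMIs per 10000 in the treated other gated cells to 42.1, 67.2 and 64.1 (0.42, adjusted p = 0.012). In the untreated library *Nkg7* lay the other way, at 20.3 against 27.1, but not without the cells rich in *Lyz2* (33.7). *Ctla2a* fell (-0.61, adjusted p = 0.043), as it did between cells with more and fewer markers. *Gzmk*, the granzyme of memory-type effector cells, was 0.65 higher without passing (adjusted p = 0.12) and passed without the cells rich in *Lyz2* (0.70, adjusted p = 0.026), and the fold changes of *Srgn*, *Ctsw* and *Cst7*, with adjusted p of 0.69 or more, lay between -0.22 and 0.14.

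Of 14 NK cell receptor genes, 6 were tested, 2 rose and none fell, with a median of 0.68. *Klre1*, a lectin-like receptor shared by NK and effector T cells, stood at 1.92, 3.08 and 1.62 UMIs per 10000 in the treated terminal effectors and at 0.46, 0.636 and 0.376 in the other gated cells, above them in each treated library (2.18, SE 0.26, adjusted p = 0.0002). The untreated library had 1 and 2 UMIs. *Klrk1*, encoding the activating receptor NKG2D, stood at 6.18, 7.88 and 6.26 against 4.25, 3.46 and 4.89 (0.72, adjusted p = 0.027). *Klrc1*, encoding inhibitory NKG2A, and its partner *Klrd1*, encoding CD94, did not pass (0.65 and 0.41, adjusted p = 0.14 and 0.18) but did so without the cells rich in *Lyz2* (adjusted p = 0.011 and 0.0083). *Ncr1*, which defines NK cells, had 6, 7, 3 and 0 UMIs in terminal effectors and none in the other gated cells. The part of NK cells in the NK receptor values was not tested.

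Of 16 memory and naive genes, 14 were tested, 8 fell and none rose, with a median log2 fold change of -0.87. *Il7r*, the IL-7 receptor chain that keeps memory precursors alive, stood at 0.865, 0.835, 1.92 and 1.58 UMIs per 10000 in the terminal effectors of the 4 libraries and at 4.04, 3.51, 4.05 and 3.8 in the other gated cells, without overlap (-1.35, SE 0.21, adjusted p = 0.0023). *Ccr7*, the chemokine receptor for lymph node entry, stood at 0.432, 0.835, 0.48 and 0.341 against 2.63, 1.78, 1.67 and 1.38 (-1.59, SE 0.30, adjusted p = 0.0083). *Dapl1*, a gene of naive and memory CD8+ cells, had the largest decrease of all, from 3.33, 3.86 and 2.09 to 0.668, 1.71 and 0.128 in the treated libraries (-2.02, SE 0.32, adjusted p = 0.0024). Naive CD8+ cells, which were selected by *Ccr7*, stood above both subsets for *Il7r* and *Dapl1* in every library. With the cells rich in *Lyz2* left out, the untreated and anti-PD-L1 terminal effectors held 1.43 and 1.12 UMIs per 10000 of *Il7r* and 0.716 and 1.01 of *Ccr7*, still below the other gated cells.

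*Slamf6*, a receptor of stem-like and memory cells, and the transcription factors *Satb1* and *Tcf7*, which encode a chromatin organizer of naive T cells and TCF-1, also fell (-1.26, -1.12 and -0.98, adjusted p = 0.012 to 0.014), as did the costimulatory receptor gene *Cd28* (-0.89) and the lymphotoxin gene *Ltb* (-0.84). *Lef1*, *Cd27* and *Bcl2* lay between -0.75 and -0.60 without passing, and *Eomes*, a T-box factor of memory cells, was at 0.07. The decrease was thus seen in 8 of the 14 genes, and the 13 with a value below 0 included all but *Eomes*.

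**Figure D4:**
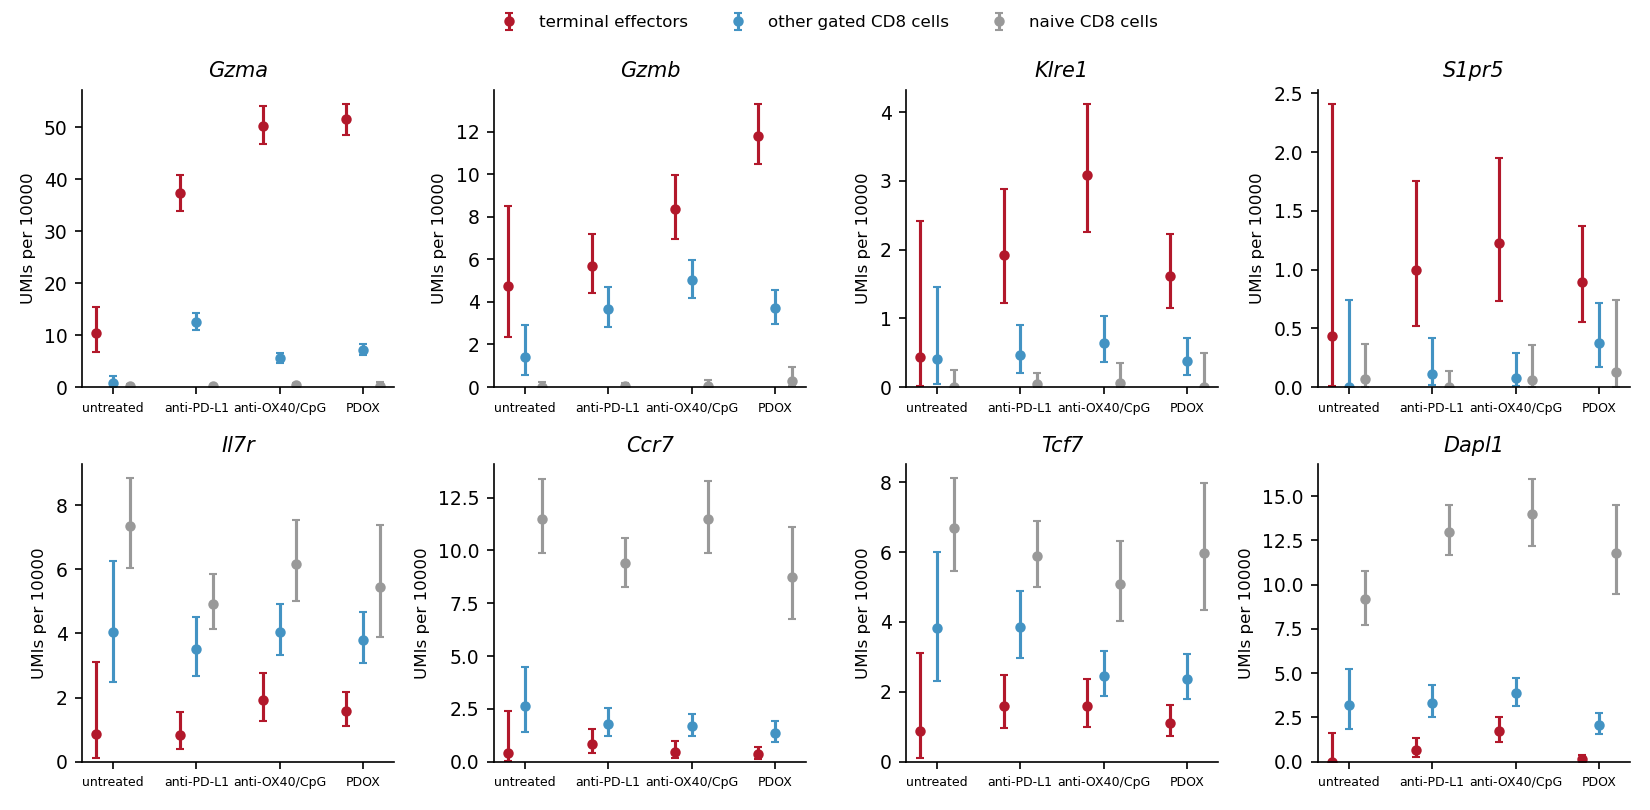
UMIs per 10000 of 4 genes that were higher (top) and 4 that were lower (bottom) in terminal effectors, in terminal effectors, other gated CD8+ cells and naive CD8+ cells of each library, with exact 95% Poisson intervals. *Gzma* and *Gzmb* lie above the other gated cells in every library, in the untreated one mainly through 1 cell. *Il7r*, *Ccr7*, *Tcf7* and *Dapl1* lie below the other gated cells and farther below the naive cells, which were selected by *Ccr7*.

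Among 22 transcription factor genes, of which 17 were tested, none rose and 2 fell (median 0.05). Beside *Tcf7*, this was *Ikzf2*, encoding Helios, at 0.334, 1.23 and 0.554 UMIs per 10000 in the treated terminal effectors and 2.18, 1.87 and 1.67 in the other gated cells (-1.37, SE 0.30, adjusted p = 0.020). *Runx3*, which drives the cytotoxic lineage, and *Klf2*, which maintains homing receptors, were at 0.05 and -0.02.

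Of 16 homing and adhesion genes, 13 were tested, *S1pr5* rose and *Ccr7* fell, with a median of 0.06. *S1pr1*, the receptor for exit from lymph nodes, was at -0.37 (adjusted p = 0.49), and the integrin genes *Itgb2*, *Itgal*, *Itgb1* and *Itga4* lay between 0.54 and -0.02 with adjusted p of 0.19 or more. Of 12 cytokine receptor genes, 9 were tested and only *Il7r* was called, with a median of -0.20, while *Il2rb*, the shared IL-2 and IL-15 receptor chain, was at -0.34 (adjusted p = 0.53). *Il18rap*, an IL-18 receptor chain, missed the threshold (1.27, adjusted p = 0.065) and passed without the cells rich in *Lyz2* (1.36, adjusted p = 0.022).

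Inhibitory receptor genes and *Tox*, the transcription factor of exhausted cells, were not called in either direction. Of 10 genes, 5 were tested, with a median of 0.10. *Pdcd1*, encoding PD-1, stood at 0.501, 1.37 and 0.554 UMIs per 10000 in the treated terminal effectors and at 0.172, 1.31 and 0.459 in the other gated cells (0.32, SE 0.34, adjusted p = 0.81). *Lag3* was at 0.19 and *Tox* at 0.10 (adjusted p = 0.88 and 0.96). The 6, 20 and 13 *Pdcd1* UMIs of the terminal effectors limit the precision of this comparison. Of 7 costimulatory receptor genes, 5 were tested and only *Cd28* was called, with a median of -0.46. *Tnfrsf4*, encoding OX40 itself, had 0, 0, 3 and 3 UMIs in the terminal effectors and was not tested.

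Of 11 chemokine and cytokine genes, 6 were tested, 2 rose and *Ltb* fell (median 0.32). *Ifng*, encoding interferon gamma, stood at 2, 1.85 and 1.28 UMIs per 10000 in the treated terminal effectors and 0.345, 1.07 and 0.543 in the other gated cells (1.34, SE 0.31, adjusted p = 0.025). *Ccl4*, a chemokine released on activation, stood at 2.17, 10.3 and 3.24 against 1.38, 4.69 and 1.42 (1.07, SE 0.18, adjusted p = 0.0031). The call of *Ccl4* was lost and its sign turned (-0.16) when cells were thinned and gated again.

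Of 13 cell cycle genes, 9 were tested and 4 rose, with a median of 0.80. *Stmn1*, a tubulin regulator of dividing cells, stood at 4.68, 2.67 and 4.39 UMIs per 10000 in the treated terminal effectors and at 2.64, 0.994 and 0.292 in the other gated cells (1.81, SE 0.35, adjusted p = 0.0086). *Birc5*, encoding the mitotic protein survivin, stood at 1.09, 1.37 and 2.26 against 1.09, 0.159 and 0.167, level in the anti-PD-L1 library (2.02, SE 0.47, adjusted p = 0.031). *Cdk1*, the mitotic kinase, had 6, 7 and 19 UMIs against 4, 1 and 0 (2.95, SE 0.67, adjusted p = 0.025), and *Hmgb2*, a chromatin protein of dividing cells, rose by 0.77 (adjusted p = 0.011). The summed list stood at 13.4, 32.7, 31.4 and 45.3 UMIs per 10000 in terminal effectors and at 40.6, 34.4, 20 and 19.5 in the other gated cells. It was thus lower in terminal effectors in the untreated and anti-PD-L1 libraries and higher in the others, and without the cells rich in *Lyz2* the first 2 sums were 12.9 and 39.4, the latter above the other gated cells. *Mki67*, the common proliferation marker, did not pass (0.80, SE 0.57, adjusted p = 0.63). Once cells with a defining marker of another cell type, *Ms4a6c* included, were left out, *Stmn1*, *Birc5* and *Hmgb2* did not pass (adjusted p = 0.20, 0.39 and 0.17). *Cdk1* was then too low to be tested.

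**Figure D5:**
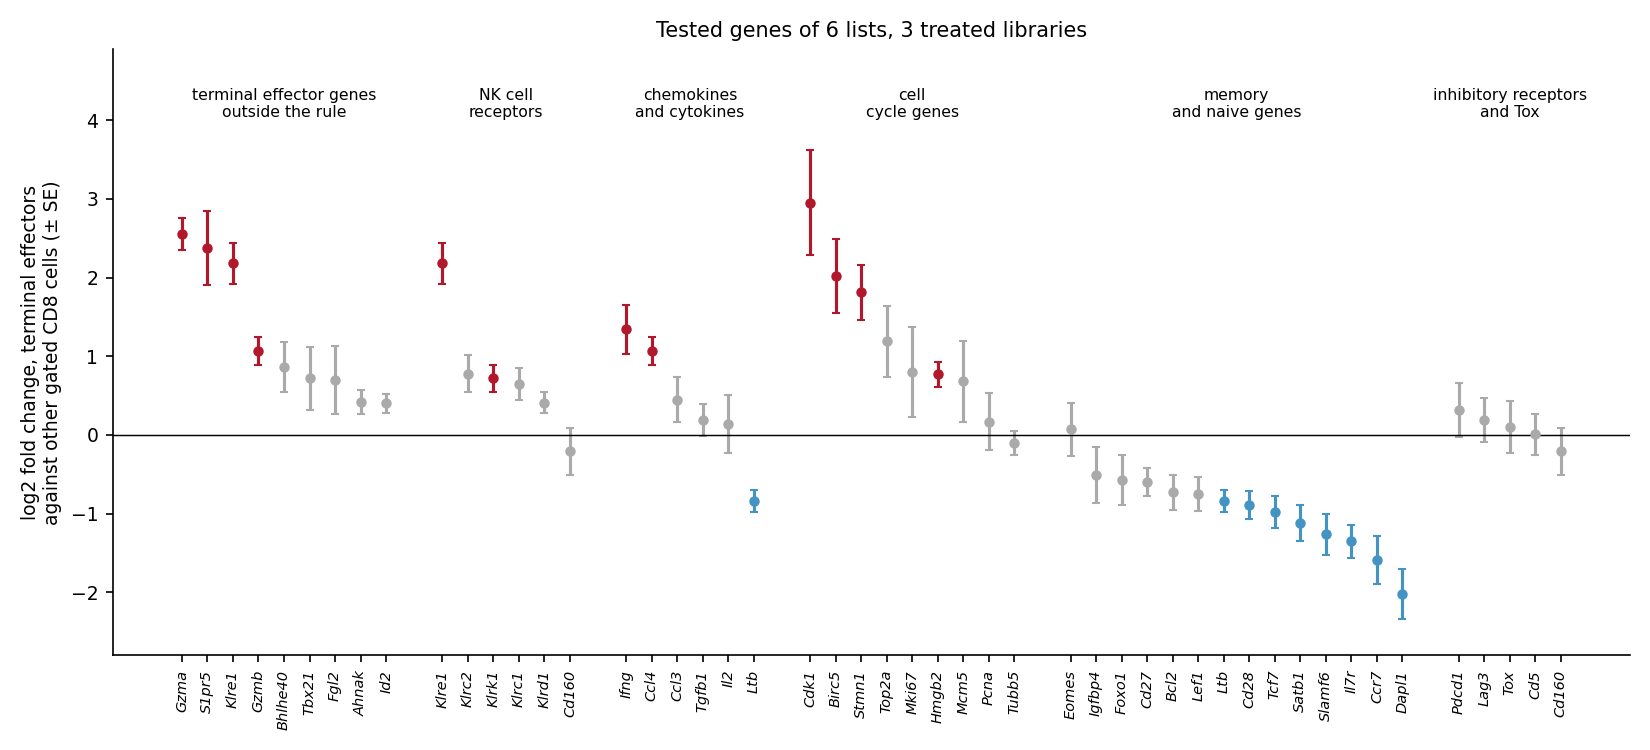
Log2 fold change (± SE) of terminal effectors against other gated CD8+ cells for the tested genes of 6 lists, from edgeR over the 3 treated libraries. Red and blue points passed an adjusted p of 0.05 as higher and lower, grey points did not. All 9 tested terminal effector genes lie above 0, 13 of 14 memory and naive genes lie below it, and the inhibitory receptor genes lie around it.

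Some of the largest increases were those of monocyte genes. *Tyrobp*, a signaling adapter of myeloid and NK cells, had the largest log2 fold change of all (3.53, SE 0.62, adjusted p = 0.0046), at 42.8, 18, 1.99 and 0.17 UMIs per 10000 in the terminal effectors of the 4 libraries and at most 0.795 in the other gated cells. *Fcer1g*, an Fc receptor chain, and *Ms4a6c*, a monocyte membrane gene, were also called (2.93 and 2.22, adjusted p = 0.00057 and 0.021). Without the cells rich in *Lyz2*, *Fcer1g* and *Ms4a6c* no longer passed (0.93 and 1.08, adjusted p = 0.23 and 0.21), and *Tyrobp* was at 1.82 (adjusted p = 0.0098), with 26.5 and 2.02 UMIs per 10000 in the first 2 libraries. *Tppp3*, a tubulin-binding gene called at 2.07 (adjusted p = 0.0099), stood at 16, 3.17, 0.548 and 0.17 UMIs per 10000 in terminal effectors and was then too low to be tested, and *Lgals3*, encoding galectin-3, went from 0.58 to 0.23 (adjusted p = 0.020 and 0.57).

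Of the other largest decreases, *Nsg2*, a gene of naive T cells, fell by 1.94 on the log2 scale (adjusted p = 0.0099), *Spint2*, a protease inhibitor, by 1.40 (adjusted p = 0.037) and *Mgst2*, a microsomal glutathione transferase, by 1.31 (adjusted p = 0.042). *Cd7*, a surface protein of T and NK cells, fell by 0.95 (adjusted p = 0.034).

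Transcripts of the translation machinery were lower in terminal effectors. Ribosomal protein genes, which were left out of the counts above, made up 24.4%, 24.8%, 27% and 24.1% of all UMIs in the terminal effectors and 44.4%, 36%, 37.6% and 31.4% in the other gated cells. The groups did not overlap, and the first 2 shares were 26.7% and 26.6% without the cells rich in *Lyz2*. With all genes kept, 83 of 93 tested ribosomal protein genes were called lower and none higher (median log2 fold change -0.62), in a fit that called 1.34% of 3273 genes higher and 4.22% lower, and 7 of 12 mitochondrial genes were lower. Genes of this kind whose symbols escaped the exclusion, named here after their values were seen, stayed in the main test and fell as well, among them *Rplp1* (-0.82, adjusted p = 6e-05), *Rpsa* (-0.67, adjusted p = 0.00041) and the elongation factor *Eef1a1* (-0.50, adjusted p = 0.0025).

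These calls depended on the libraries and on depth. Of the 74 genes, 6 were called whichever treated library was left out: *Gzma*, *Klre1*, *Rplp1*, *Rplp2*, *Rpsa* and *Gm10073*. *Gzmb*, *Il7r*, *Dapl1*, *Ikzf2*, *Ltb* and *Stmn1* lost their call only without PDOX and *S1pr5* only without anti-OX40/CpG (adjusted p = 0.16), whereas *Ccr7*, *Tcf7*, *Cd28*, *Slamf6*, *Nkg7*, *Klrk1*, *Ccl4*, *Birc5* and *Hmgb2* lost it without either. *Ifng* was not called without any 1 of the 3 libraries (adjusted p = 0.059 to 0.30), and *Cdk1* was not called without anti-OX40/CpG and too low to be tested without PDOX. Without the anti-OX40/CpG library 20 of 3356 genes tested were called, without the PDOX library 19 of 2707 and without the anti-PD-L1 library 97 of 3659. When cells were thinned to 1000 UMIs and gated again, 3 of 702 genes tested were called: *Gzma* (1.85), *Ltb* (-1.28) and *Rpsa* (-0.61).

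Between the PDOX and anti-OX40/CpG terminal effectors, which share the anti-OX40/CpG regimen and differ in anti-PD-L1, few genes differed by 2-fold. Of 1221 genes with at least 50 UMIs over both, 18 (1.47%) were at least 2-fold higher and 16 (1.31%) at least 2-fold lower in PDOX. With 1 library each, these are differences between libraries.

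*Ly6a*, encoding Sca-1, stood at 1.73, 4.84, 2.88 and 7.12 UMIs per 10000 in the terminal effectors of the 4 libraries, a PDOX to anti-OX40/CpG ratio of 2.47 (1.75 to 3.56). *Itga4*, the integrin alpha 4 chain, stood at 3.03, 2.67, 2.06 and 4.52 (ratio 2.2, 1.45 to 3.42). *Cd6*, a costimulatory receptor, stood at 1.73, 1.25, 0.617 and 2.3 (ratio 3.73, 1.83 to 8.6). All 3 were highest in PDOX, and the same ratios in the other gated cells, 2.34, 1.6 and 2.14, had the same direction. Without the cells rich in *Lyz2*, the untreated and anti-PD-L1 terminal effectors held 2.87 and 6.17 UMIs per 10000 of *Ly6a* and 3.58 and 3.14 of *Itga4*. For *Cd6* they held 2.15 and 1.68. These levels lay closer to PDOX but still below it. *Gm8797* and *Ict1* were 2.49 and 2.25-fold higher.

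*Ccl3*, an inflammatory chemokine, stood at 3.46, 0.752, 5.07 and 0.469 UMIs per 10000 in the terminal effectors of the 4 libraries (PDOX to anti-OX40/CpG ratio 0.0925, 0.0442 to 0.175) and *Tox* at 0, 1.17, 2.74 and 0.426 (ratio 0.156, 0.0693 to 0.316). Both were highest after anti-OX40/CpG alone, also among the other gated cells, where the ratios were 0.0982 and 0.461, and the untreated *Ccl3* level was 0.716 without the cells rich in *Lyz2*. *Lag3*, looked up after its value was seen, behaved alike (3.29 against 0.724, ratio 0.22). The lowest ratio of all was that of *Gm10076* (0.0414), and *Gm8186* (0.102) and *Gm10073* (0.163) were also low. RefSeq lists these genes, and *Gm8797*, as pseudogenes, so that reads of other copies may be counted in them. For *Gm10076*, GENCODE gives the type long noncoding RNA instead. The 3 low genes differed alike in naive CD8+ cells (*Gm10076* 49.6 against 1.85 UMIs per 10000). Of the 18 higher genes 16 had the same direction in the other gated cells, and all 16 lower ones did.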

How the data were processed

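The authors deposited raw UMI counts per gene and cell, 1 matrix per library, made with Cell Ranger from Chromium Single Cell 3′ reads (genome label mm10, with Seurat version 2 in the submitters' processing notes). Cells with 200 to 2900 genes detected were kept, and 130 mitochondrial, ribosomal and hemoglobin genes of 27998 were not counted. Cells were selected on UMIs as described, UMIs were summed per library and subset, and subsets were compared with the quasi-likelihood test of edgeR 4.0.16 (R 4.3.3, TMM, filterByExpr, library as block) in libraries with at least 10 cells in both subsets, at a Benjamini-Hochberg adjusted p of 0.05, without the 15 genes of the selection. The members and gene lists were chosen with earlier results of these data known.

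The genes named are the 8 largest increases and decreases with 1 direction in every library, the called and most abundant members of each list (up to 4 each), markers of other cell types and 8 effector genes, and for PDOX the 5 highest and lowest ratios with the same direction against anti-PD-L1. Intervals are exact binomial, Poisson or conditional binomial ones (scipy 1.17.1). Doublets were scored with Scrublet (scanpy 1.11.5), which marked 0.45% to 1.66% of cells, and were kept in the main analysis. The library block takes the place of a pairing, since each library gives cells to both subsets. Alternatives were DESeq2 1.42.0 and its size factors, no filter, all genes kept, no block, each library left out, thinning to 1000 UMIs, stricter gates, and leaving out doublets or cells with markers of other cell types. The scripts were tested on simulated data. One item is not reported here and was left out of the lists and of the definition of naive cells. Gene types came from GENCODE and RefSeq.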

Additional observations from a re-analysis of the deposited data

How the results depend on the processing

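Between terminal effectors and other gated cells, 74 of 3253 genes tested were called, and DESeq2 called 28 of 3253. No filter on low counts gave 134 of 11986, all genes kept 182 of 3273 and the untreated library added 34 of 2538. Thinned UMIs gave 33 of 1207, and thinned cells gated again 3 of 702. Without cells with a defining marker of another cell type, 47 of 2046 were called. With 2 or more marker UMIs 37 of 2687 were called, and with at least 4 gate genes 10 of 2520. Leaving out 1 library gave 19 of 2707 (PDOX), 20 of 3356 (anti-OX40/CpG) and 97 of 3659 (anti-PD-L1). Of the 74, 18, 17 and 60 were still called. Without the replicate block, 2 of the 74 were called, and 0 between cells with more and fewer markers. For the comparison of cells with more and fewer markers (2 of 1196 genes tested), DESeq2 called 0 of 1196 and no filter 14 of 10792. Leaving out a library gave 0 of 1047 without PDOX, 6 of 1648 without anti-PD-L1 and 13 of 1506 without anti-OX40/CpG. Thinned cells gated again and cells without other lineage markers could not be fitted in that comparison. With at least 20 or 100 UMIs required, 260 of 2881 or 13 of 548 genes passed 2-fold between PDOX and anti-OX40/CpG. Terminal effectors as a share of CD8+ T cells were 3.59%, 4.77% and 14.2% in the treated libraries when thinned and gated again, 3.68%, 4.61% and 12.7% with 2 marker UMIs, 3.52% (anti-PD-L1) and 15.8% (PDOX) with 4 gate genes, and 1.24% (untreated) and 3.31% (anti-PD-L1) without other lineage markers. As a share of gated cells they were 22.4% and 30.1% (thinned) and 21.5% and 32.6% (2 marker UMIs) with anti-OX40/CpG and PDOX. The *Gzma* ratio became 3.75, 1.93 and 5.33 in the treated libraries when thinned and gated again, 3.99, 13 and 9.82 with 2 marker UMIs, and 0.497 (untreated, reversed), 1.61 (anti-PD-L1) and 5.75 (anti-OX40/CpG) with 4 gate genes. It was 3.65 (untreated) and 2.3 (anti-PD-L1) without other lineage markers, and in the anti-PD-L1 library 3.84 without cells with *Csf1r*, *Spi1* or *Cd14* and 3.99 without those rich in *Lyz2*, settings chosen after seeing the data. Signs turned for *Ccl4* (-0.16) and *Lgals3* (-0.05) when thinned and gated again and for *Lag3* on leaving out a library (-0.47 without anti-OX40/CpG to 0.59 without PDOX), with 2 marker UMIs (-1.05) and with 4 gate genes (-0.10), and the cause was not tested. Of 1349 single-gene values, 829 kept direction and side of the threshold, 498 lost the call, 17 gained it and 5 reversed. The depth of these cells leaves many low genes untested, and the 9 untreated terminal effectors allow no firm statement.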
